A study of Homo sapiens with 4 samples.

Results

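The imprinted domain at 11p15.5 was described here by its accessible regions in BCPAP, a line of human thyroid carcinoma cells, after 5-azacytidine and without treatment. The peaks of 4 ATAC-seq lists were merged where they shared at least 1 base, and each merged region with its midpoint between 1900 and 3100 kb on chromosome 11 (hg19) was taken. There were 609 such regions of 373425 on chromosomes 1 to 22 and X. The 5-azacytidine group had 2 libraries and the untreated group 2 libraries, and the labels do not say whether the replicates were grown apart, so their spread may be technical only. The labels name the agent but no dose or duration, and all libraries came from the same line, so that the results hold for 1 cell line. In ATAC-seq a transposase cuts exposed DNA, and sites cut often appear as peaks of coverage. 5-Azacytidine is taken up into nucleic acids in place of cytidine, binds DNA methyltransferases and lowers CpG methylation. The thyroid identity of the cells was not checked here, since positions of marker genes on hg19 were not at hand.

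The domain holds a pair of imprinted clusters, in which the parental copies of a gene differ in activity. In the cluster of H19 and IGF2, a control region upstream of the start of H19 is methylated on the paternal copy and bound by the insulator protein CTCF on the maternal copy. H19 is a long noncoding RNA expressed from the maternal copy, and IGF2 a growth factor expressed from the paternal copy. In the KCNQ1 cluster, the start of the antisense RNA KCNQ1OT1 lies in a control region within KCNQ1 that is methylated on the maternal copy. On the paternal copy KCNQ1OT1 is transcribed and the genes around it are silent, among them CDKN1C, an inhibitor of cyclin-dependent kinases, and PHLDA2, which restrains placental growth. KCNQ1 encodes a voltage-gated potassium channel, and ASCL2 a transcription factor of the trophoblast and intestinal stem cells. Peak lists do not separate the parental copies, and a site that is open in fewer cells or on 1 copy cannot be told from one that is less open in all.

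The value given for each region is the read coverage at its highest summit in each list, derived from the authors' fold enrichment, and it was 4 or more wherever a peak was listed. A library with no listed peak may still have had reads there. Coverage differed between the lists as a whole. Over the 105414 regions that all 4 lists held, its median was 11 and 16 in 5-azacytidine replicates 1 and 2, against 23 and 18 in untreated replicates 1 and 2. Coverage is therefore also given as scaled coverage, divided by these medians, which puts the median log2 ratio of treated over untreated coverage in those regions at 0.06 instead of −0.56. The coverage values describe peaks within a list, and no test was run on single regions.

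The agent lowers methylation at CpG sites, so the promoters of the genes that could be matched are shown first. They are RefSeq sequences on GRCh38.p14, each with 250 bases before and 50 after a transcript start, written 5′ to 3′ with CpG sites in capitals. Of the 7 named genes H19, IGF2, ASCL2, KCNQ1, KCNQ1OT1, CDKN1C and PHLDA2, 1 was matched in the table, H19. TSSC4 is shown because it lies between ASCL2 and KCNQ1. That stretch held the clearest group of sites with more coverage after treatment. KCNQ1DN is shown because it lies between KCNQ1 and CDKN1C.
H19: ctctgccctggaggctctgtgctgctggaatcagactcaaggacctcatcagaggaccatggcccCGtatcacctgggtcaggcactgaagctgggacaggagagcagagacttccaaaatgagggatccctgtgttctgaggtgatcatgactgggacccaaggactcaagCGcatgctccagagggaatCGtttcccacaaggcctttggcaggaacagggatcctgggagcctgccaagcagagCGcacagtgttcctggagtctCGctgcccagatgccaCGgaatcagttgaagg
TSSC4: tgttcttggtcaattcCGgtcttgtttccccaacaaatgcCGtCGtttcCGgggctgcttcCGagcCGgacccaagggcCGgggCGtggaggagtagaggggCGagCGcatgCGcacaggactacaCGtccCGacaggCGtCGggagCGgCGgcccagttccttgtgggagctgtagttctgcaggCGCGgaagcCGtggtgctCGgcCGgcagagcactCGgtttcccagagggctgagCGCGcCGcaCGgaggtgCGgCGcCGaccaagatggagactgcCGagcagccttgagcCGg
KCNQ1DN: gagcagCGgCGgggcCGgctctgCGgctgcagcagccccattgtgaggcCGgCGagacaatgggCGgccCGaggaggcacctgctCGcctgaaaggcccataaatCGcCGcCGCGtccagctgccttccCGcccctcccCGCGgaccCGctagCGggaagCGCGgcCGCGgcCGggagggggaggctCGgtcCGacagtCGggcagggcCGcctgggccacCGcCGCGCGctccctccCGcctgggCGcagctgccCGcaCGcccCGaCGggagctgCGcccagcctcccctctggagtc
The H19 window is chr11:2001217-2001516 on the minus strand and holds 6 CpG sites. The TSSC4 window is chr11:2400500-2400799 on the plus strand and holds 32. The KCNQ1DN window is chr11:2869783-2870082 on the plus strand and holds 38. The motif searched was CG, which reads the same on both strands. It was found in 96.0% of 35116 promoters of the same length, with a median of 14 sites. The H19 window therefore had fewer sites than the median promoter, and those of TSSC4 and KCNQ1DN had more. RefSeq gives H19 a length of 6.09 kb, and the positions used here are those of a shorter form from 2016 to 2019 kb. The window may thus not be the promoter of that shorter form. The builds differ, so these windows were not placed against the peaks.

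The first comparison was of the number of peaks in the domain. There were 545 and 405 peaks in the 5-azacytidine libraries, against 305 and 392 in the untreated libraries. The groups did not overlap, but 5-azacytidine replicate 2 was close to untreated replicate 2. The means were 475 ± 99.0 and 349 ± 61.5 (SD, n = 2 each), a ratio of 1.36 (log2 0.44). An exact permutation test over the libraries (two-sided) gave p = 0.333, and with 2 libraries against 2 no smaller value is possible. As a share of its list, the domain held 0.210% and 0.165% of peaks in the treated lists, against 0.138% and 0.176% in the untreated lists. Here the groups overlapped (log2 ratio 0.26, exact permutation p = 0.667), since untreated replicate 2 lay above 5-azacytidine replicate 2. The groups also overlapped with lists of equal length and in a narrower domain, 10 kb beyond H19 and PHLDA2 (log2 ratios 0.26 and 0.20, exact permutation p = 0.667 each). They did not overlap among peaks with a −log10 q of at least 5 or a coverage of at least 10. The log2 ratio of the shares was then 0.53 and 0.49 (exact permutation p = 0.333 each). These ratios also reflect the whole lists, where the log2 ratio of all peaks was −0.24 and −0.30. For peaks in the domain it was 0.30 and 0.19. Most peaks were low. The median coverage in the domain was 7 and 8 in the treated lists, against 8 and 7 in the untreated lists. A coverage of 10 was reached by 127 and 158 peaks in the treated lists, against 124 and 125 in the untreated lists.

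**Figure D1:**
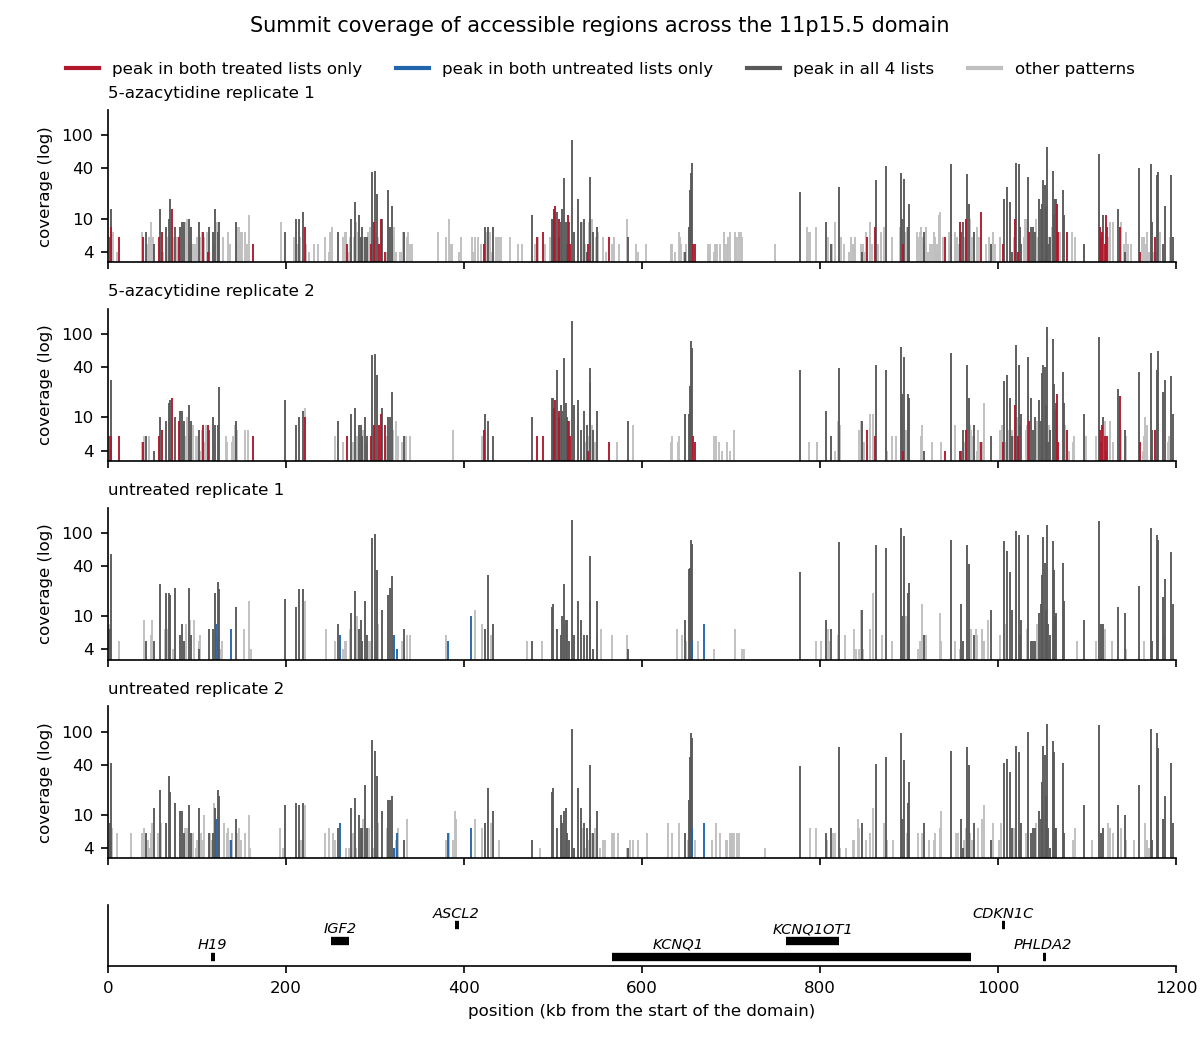
Summit coverage (log scale) of each region against its position in kb from the start of the domain, in 5-azacytidine replicates 1 and 2 and untreated replicates 1 and 2 from top to bottom, with the named genes below. Lines for regions with a peak in both treated lists only (52) stand at low coverage and mostly beside regions of all 4 lists (132).

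The second comparison was of regions with a peak in the lists of 1 group only. A region was called gained if both treated lists and no untreated list held a peak in it, and lost if it was the other way round. The domain held 52 gained regions, which is 8.54% of its regions, against a background of 4.21% over all regions of the series. It held 9 lost regions, 1.48% of its regions, against a background of 3.35%. There were thus 5.78 gained regions for each lost region in the domain and 1.25 in the whole series, and on the rest of chromosome 11 the ratio was 1.97. The share of gained regions was also above the background around the domain, at 9.04% in the 1200 kb before it and 7.60% in the 1200 kb after it. Pairs of lists that cross the groups also differed from the series. Regions in 5-azacytidine replicate 1 and untreated replicate 2 only numbered 36 (5.91%, background 1.97%). Those in 5-azacytidine replicate 2 and untreated replicate 1 only numbered 5 (0.821%, background 2.42%). The pairs of equal replicate number were nearer to the background, with 13 regions for the replicates 1 (2.13%, background 1.69%) and 12 for the replicates 2 (1.97%, background 1.77%). The part of this split between the libraries in the gained regions was not tested. Each gained region has a peak in both treated lists. With 1 treated library left out, regions of the other treated library alone are counted as well. Such counts thus cannot show on which library the excess of gained regions rested. Regions of 5-azacytidine replicate 2 alone were 7.22% of the domain's regions, against 10.99% in the whole series. Those of 5-azacytidine replicate 1 alone were 22.2%, against 19.3%. Without 5-azacytidine replicate 1, 96 regions had a peak in 5-azacytidine replicate 2 and in neither untreated list. They were 20.3% of the regions left in the domain, against 18.8% in the whole series. Without 5-azacytidine replicate 2 there were 187, or 33.1%, against 26.4%. Without untreated replicate 1 there were 74 gained regions (12.9%, against 7.03%), and without untreated replicate 2 there were 86 (15.4%, against 6.68%).

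**Figure D2:**
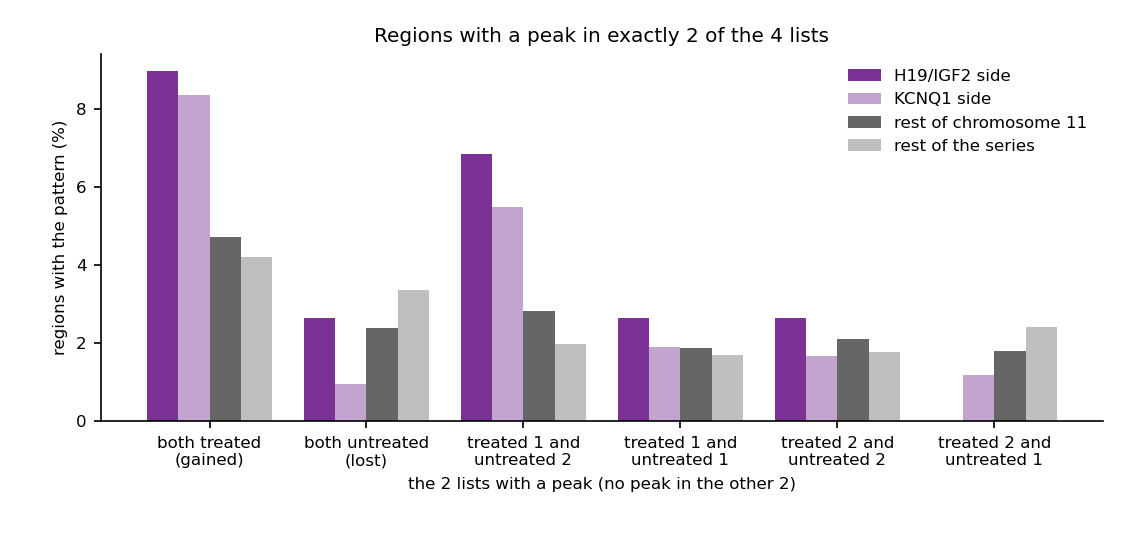
Share of regions (%) with a peak in exactly 2 of the 4 lists, for each pair of lists, in the H19/IGF2 side of the domain, its KCNQ1 side, the rest of chromosome 11 and the rest of the series. Gained regions made up 8.95% and 8.35% of the sides, and the pair of treated replicate 1 and untreated replicate 2 was also raised on both sides, at 6.84% and 5.49%.

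Among gained regions, 7 reached a coverage of at least 10 in both treated lists. They were 1.15% of the domain's regions, against a background of 0.139%, and no lost region reached that coverage in both untreated lists (background 0.26%). This density of strong gained sites was known from earlier results on these data. With 5-azacytidine replicate 1 left out, 13 regions had such a peak in replicate 2 and none in the untreated lists (2.74%, against 1.17% in the whole series), and with replicate 2 left out there were also 13 (2.30%, against 0.493%). The strongest was chr11:2966525-2967031, beyond PHLDA2, with a coverage of 15 and 19 in 5-azacytidine replicates 1 and 2. The region chr11:1971087-1971612, before H19, had 13 and 17. Of the others, chr11:2206096-2207094 lay between IGF2 and ASCL2 with 10 and 11, and chr11:2919214-2919808 lay between CDKN1C and PHLDA2 with 10 and 14. The other 3 lay between ASCL2 and KCNQ1 and are described with that segment. Gained regions tended to lie beside constitutive ones. The median distance to the nearest region of all 4 lists was 1.75 kb in the domain and 3.80 kb for all gained regions of the series. Within 2 kb lay 30 of 52 (57.7%), against 31.6% in the whole series. The density of regions of all 4 lists was not matched between domain and series. Within the domain, 3 of 9 lost regions lay as near. So did 9 of 36 regions of 5-azacytidine replicate 1 and untreated replicate 2 only, and 4 of 5 of the opposite crossed pair.

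**Figure D3:**
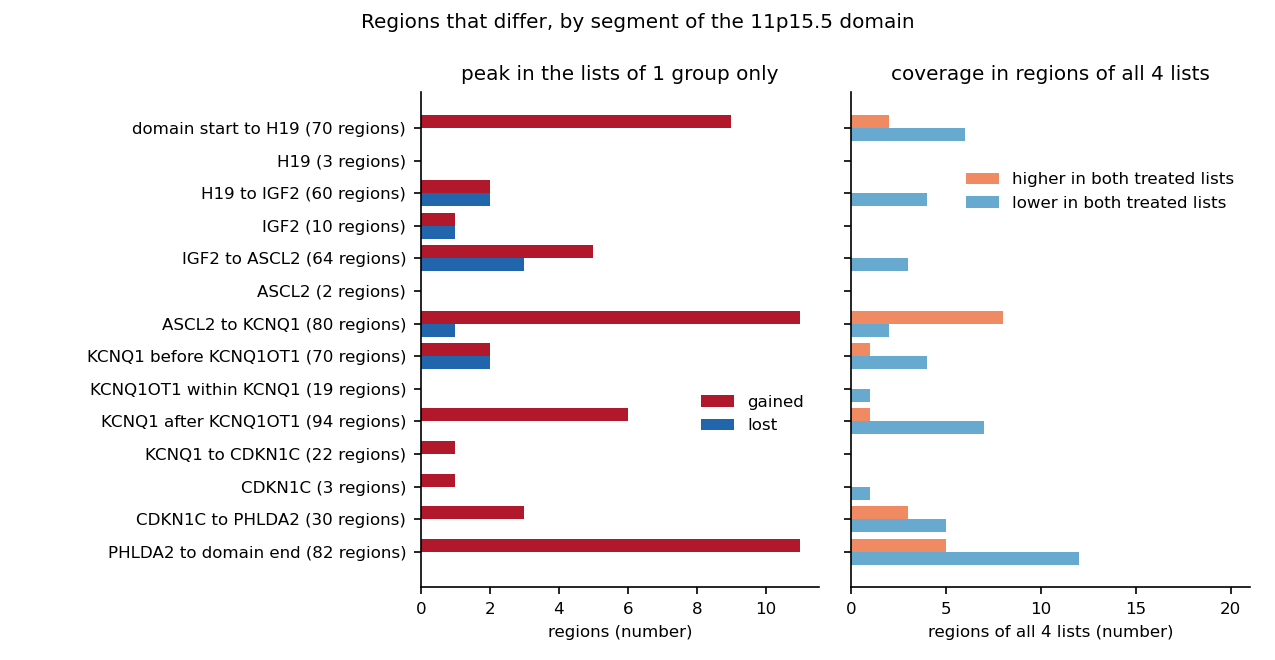
Left, number of gained (both treated lists only) and lost (both untreated lists only) regions in each segment of the domain. Right, number of regions of all 4 lists whose coverage was higher or lower in both treated lists than in both untreated lists. The segments from ASCL2 to KCNQ1 and from PHLDA2 to the end of the domain held 11 gained regions each, and the first of them also held 8 of the 20 regions that were higher in both treated lists.

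H19 itself was weakly accessible in all libraries. Its 1 region of all 4 lists, chr11:2017179-2018219, had a coverage of 7 and 10 in 5-azacytidine replicates 1 and 2, against 7 and 6 in untreated replicates 1 and 2. The groups met at 7 without scaling. With scaled coverage both treated libraries lay above both untreated ones, and the difference was 0.99 on the log2 scale. Among regions of all 4 lists in the whole series with a mean coverage under 10, its median was 0.51. It was 1.29 or more in 5% of them. The next region, chr11:2018536-2019433, had 5 and 5 in the treated lists, against no peak and 14 in untreated replicates 1 and 2. None of the 3 regions that overlapped H19 was gained or lost (backgrounds 4.21% and 3.35%), and so few regions say little. Upstream of H19, where its control region is known to lie, 5 regions followed from chr11:2019436 on. The first of them, chr11:2019436-2020577, had a coverage of 13 and 8 in the treated lists, against 19 and 12 in the untreated lists, and the groups overlapped. The region chr11:2020979-2021716 was lost, with no listed peak in the treated lists, against a coverage of 8 and 9 in the untreated lists. The numbering of called peaks in a treated list had a gap there, which means that a peak could have been called and then taken out. Next to it, chr11:2021751-2022281 had 9 in 5-azacytidine replicate 1 and no peak in replicate 2, against 6 and 9 in the untreated lists, so the treated libraries differed between themselves. The region chr11:2022675-2023706 had a coverage of 7 and 8 in the treated lists, against 26 and 20 in the untreated lists. Both treated libraries lay far below both untreated ones, and scaled coverage differed by −0.99 on the log2 scale. Among regions of all 4 lists in the whole series with a mean coverage of 10 to 20, that difference was −0.80 or lower in 5% of regions. Its neighbour chr11:2024024-2024590 did not share this. It had 9 and 23 in the treated lists, against 21 and 17 in the untreated lists, so that the treated libraries lay on either side of the untreated ones.

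IGF2, the growth factor gene, had 11 overlapping regions and none with a coverage above 9. The 1 region of all 4 lists, chr11:2158356-2159151, had 7 and 9 in the treated lists, against 8 and 7 in the untreated lists, and the groups overlapped. One region in IGF2 was gained, chr11:2168586-2169099, with 5 and 6 in the treated lists. Another was lost, chr11:2160262-2160853, with 6 and 8 in the untreated lists. Each was 1 of the 11 (9.09%, backgrounds 4.21% gained and 3.35% lost), and so few regions say little. At the end of IGF2 near 2171 kb, where its longest form starts, chr11:2170046-2170778 had 4 in 5-azacytidine replicate 1 and 4 in untreated replicate 2 only. The strongest sites of the H19/IGF2 side lay beyond IGF2, in the segment that in RefSeq order holds INS, the insulin gene, and TH, which encodes tyrosine hydroxylase. There chr11:2196737-2197600 had 36 and 56 in the treated lists, against 86 and 79 in the untreated lists. Nearby, chr11:2199536-2200586 had 37 and 58 in the treated lists, against 98 and 58 in the untreated lists, so that the groups met at 58. Another strong site lay before H19, at chr11:1903569-1904114, with 13 and 28 in the treated lists, against 56 and 42 in the untreated lists, a scaled difference of −0.73.

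ASCL2 was nearly without peaks. It had 2 overlapping regions, both listed in untreated replicate 2 alone, with a coverage of 9 and 5. None of the 8 regions within 5 kb of it was in all 4 lists, gained or lost (backgrounds 28.2%, 4.21% and 3.35%), and so few regions say little.

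**Figure D4:**
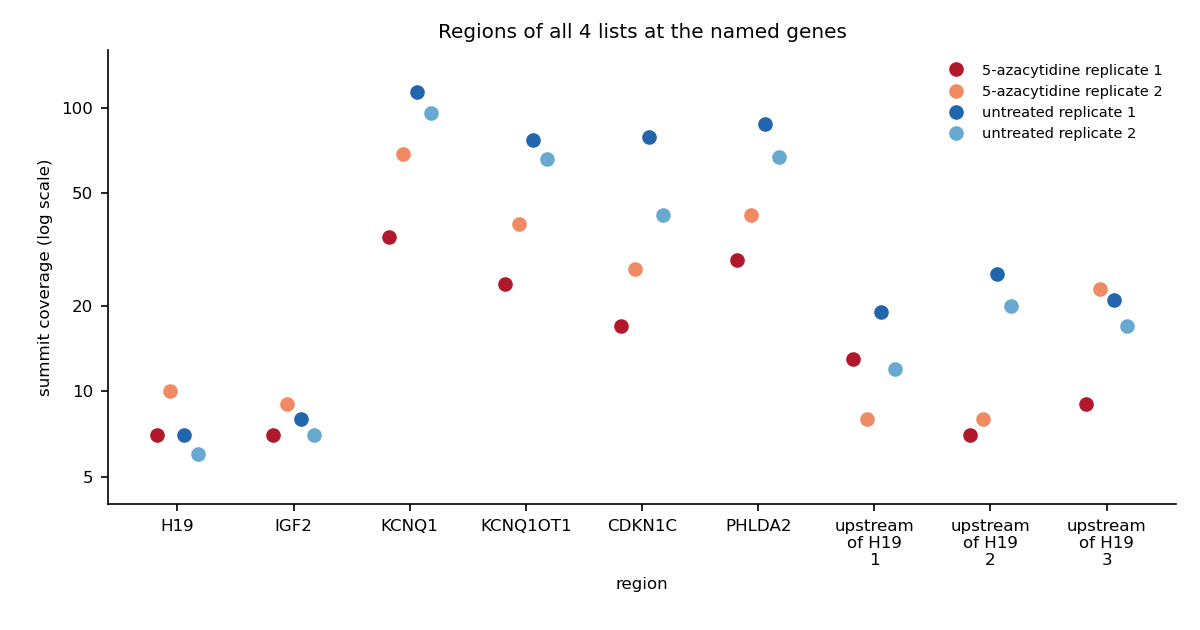
Summit coverage (log scale) in each library at the strongest region of all 4 lists that overlaps each named gene, and at the 3 regions of all 4 lists upstream of H19 as placed here. At KCNQ1, KCNQ1OT1, CDKN1C, PHLDA2 and the second upstream region both treated libraries lie below both untreated libraries, while H19 and IGF2 stay at 10 or below in all libraries.

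The segment between ASCL2 and KCNQ1 held the clearest group of sites with more coverage after treatment. In RefSeq order it holds C11orf21, TSPAN32, CD81, TSSC4 and TRPM5. CD81 encodes a tetraspanin of the cell surface and TRPM5 a cation channel of taste cells. The segment had 92 and 74 peaks in the treated lists, against 49 and 63 in the untreated lists. Its 80 regions included 11 gained (13.8%, background 4.21%) and 1 lost (1.25%, background 3.35%). Of its 23 regions of all 4 lists, 8 had a higher coverage in both treated lists than in both untreated lists, against a background of 4.39% over all such regions of the series, and 2 had a lower coverage (background 47.6%). With scaled coverage, 16 of the 23 were higher in both treated lists (background 27.2%) and 1 was lower (background 22.2%). The scaled difference was above 0 in 22 of 23, against 54.1% in the whole series, and its median was 0.78, against 0.06. Most of these were weak regions, and 20 of 23 had a mean coverage under 20. The median difference in the whole series was 0.51 at a mean coverage under 10, with 84.0% of regions above 0, and 0.11 from 10 to 20, with 57.6% above 0.

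Within this segment the window from 2400 to 2420 kb, picked after its values were seen, held 14 regions, of which 6 were gained and 7 were in all 4 lists. There were 22 and 25 peaks in the treated lists, against 12 and 17 in the untreated lists. The gained regions chr11:2401177-2401754 and chr11:2401770-2402764 had a coverage of 13 and 13, and of 14 and 16, in 5-azacytidine replicates 1 and 2. The gained region chr11:2407032-2407542 had 10 and 10. At each of these 3 the numbering of an untreated list had such a gap. Between them, the wide region chr11:2402852-2406422 was in all 4 lists, with 12 and 37 in the treated lists, against 7 and 7 in the untreated lists. Scaled coverage differed there by 2.21 on the log2 scale, where 5% of regions of the whole series with a mean coverage of 10 to 20 reached 1.17 or more. The region chr11:2411880-2412431 had 31 and 52 in the treated lists, against 24 and 11 in the untreated lists. Its scaled difference was 1.92, where 5% of regions with a mean coverage of 20 to 40 reached 0.71 or more. At both of these regions each treated library lay above each untreated library without scaling. The strongest site of the domain stood next to the window, at chr11:2419224-2422773. It had 89 and 142 in the treated lists, against 144 and 106 in the untreated lists, and the groups overlapped without scaling. Its scaled coverage was 8.09 and 8.88 in the treated lists, against 6.26 and 5.89 in the untreated lists, without overlap. The scaled difference was 0.48, where 5% of regions of the whole series with a mean coverage of at least 80 reached 0.29 or more. The site had 8 and 7 summits in the treated lists and 4 and 3 in the untreated lists.

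**Figure D5:**
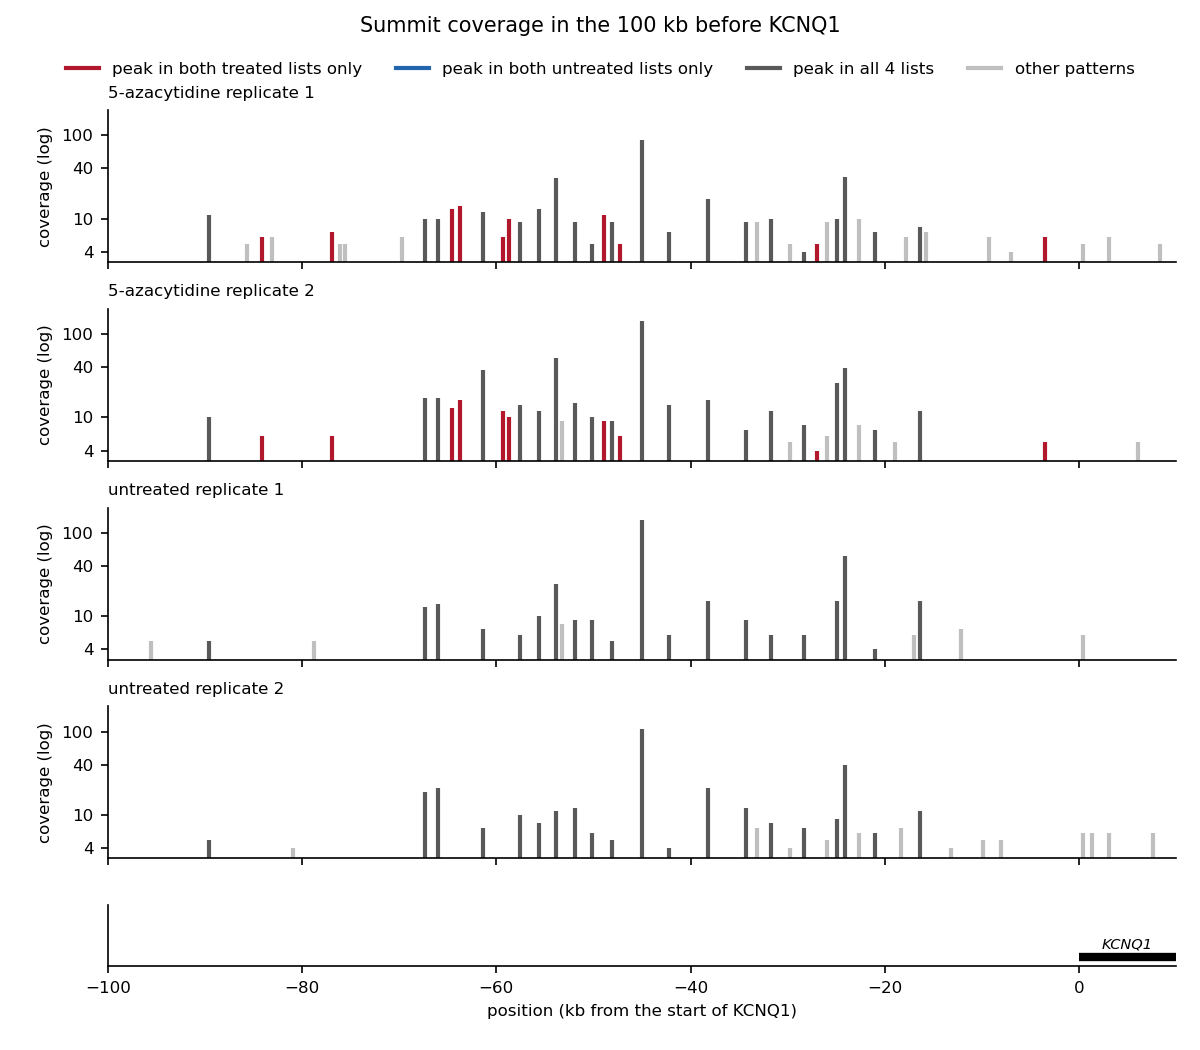
Summit coverage (log scale) of each region against its distance in kb from the start of KCNQ1, in 5-azacytidine replicates 1 and 2 and untreated replicates 1 and 2 from top to bottom. Between 66 and 46 kb before KCNQ1 the treated lists hold 6 gained regions, beside the strong site, whose coverage was 89 and 142 in the treated lists and 144 and 106 in the untreated lists.

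KCNQ1, the potassium channel gene, had 183 overlapping regions, of which 96 were in 1 list only. It held 8 gained regions (4.37%), a share near the background of 4.21%, and 2 lost regions (1.09%, background 3.35%), and 24 of its regions were in all 4 lists. At its start, chr11:2465942-2466958 was weak, with 5 in 5-azacytidine replicate 1 and no peak in replicate 2, against 6 and 6 in the untreated lists. Before KCNQ1OT1 its strong sites stood in 1 group. There chr11:2554933-2555451 had a coverage of 35 and 82 in the treated lists, against 83 and 97 in the untreated lists. Beside it, chr11:2555455-2555972 had 47 and 68 in the treated lists, against 74 and 83 in the untreated lists. After KCNQ1OT1 the sites were more frequent, with 94 regions in 149 kb, against 70 in the 196 kb before it. Of the 94, 6 were gained (6.38%) and none lost. The strongest, chr11:2789955-2791278, had 35 and 69 in the treated lists, against 114 and 96 in the untreated lists. Both treated libraries lay below both untreated ones at all 3 sites without scaling, as at 66.1% of regions of the series with a mean coverage of at least 20. Scaled differences were −0.13 at the first, 0.15 at the second, where the sign thus turned, and −0.47 at the last, while the middle 50% of regions with a mean coverage of 40 to 80 lay between −0.47 and 0.05.

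KCNQ1OT1, the antisense RNA of the imprinting control region, had 20 overlapping regions, of which 11 were in 1 list only. None was gained or lost, but at backgrounds of 4.21% and 3.35% few would be looked for among 20. The region at its end near 2721 kb, where the RNA is known to start, was chr11:2720315-2722263, with 3 summits in each list. It had a coverage of 24 and 39 in the treated lists, against 77 and 66 in the untreated lists, and the groups did not overlap. The scaled difference was −0.60, inside the range of the series at that strength, where the lowest 5% were at −0.83 or below. Within the body of KCNQ1OT1, chr11:2677377-2677890 had 21 and 37 in the treated lists, against 34 and 39 in the untreated lists, which overlapped.

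CDKN1C had a wide region over its body and start, chr11:2905512-2908112. It had a coverage of 17 and 27 in the treated lists, against 79 and 42 in the untreated lists. The groups did not overlap, and the scaled difference of −0.81 was close to the limit of −0.83 of the lowest 5%. The next region, chr11:2909506-2910045, had 24 and 32 in the treated lists, against 61 and 47 in the untreated lists, a scaled difference of −0.33. A weak gained region, chr11:2904815-2905384, lay inside CDKN1C with 5 and 5 in the treated lists. It was 1 of the 3 regions that overlapped the gene (background 4.21%). At PHLDA2, chr11:2950140-2951457 had 29 and 42 in the treated lists, against 88 and 67 in the untreated lists, without overlap and with a scaled difference of −0.52. A stronger site followed at chr11:2954524-2955480, with 73 and 120 in the treated lists, against 125 and 123 in the untreated lists. Both treated libraries were lower there too, 5-azacytidine replicate 2 only slightly, and the scaled difference was 0.21. All 7 regions within 5 kb of PHLDA2 were in all 4 lists (background 28.2%). The scaled difference was above 0 in 6 of these 7, against 54.1% in the whole series.

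Beyond PHLDA2, where NAP1L4, a nucleosome assembly gene, and CARS1, a cysteinyl-tRNA synthetase gene, follow in RefSeq order, 82 regions included 11 gained (13.4%, background 4.21%) and none lost (background 3.35%). Among the strong sites there, chr11:3011783-3014235 had 60 and 91 in the treated lists, against 138 and 121 in the untreated lists. The region chr11:3058464-3059383 went the other way without scaling, with 40 and 35 in the treated lists, against 23 and 23 in the untreated lists.

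The third comparison was of coverage in the 132 regions of all 4 lists in the domain. They were 21.7% of its regions, against a background of 28.2%. Without scaling, 20 (15.2%) were higher in both treated lists than in both untreated lists, against a background of 4.39%, and 45 (34.1%) were lower, against 47.6%. With scaled coverage, 50 (37.9%) were higher (background 27.2%) and 23 (17.4%) lower (background 22.2%). Where at least 2 lists reached a coverage of 10, in 89 regions, 10 were higher without scaling (background 3.31%) and 40 lower (background 53.8%). The difference from the series lay mostly in weak regions, in a split chosen after the data were seen. Of 91 regions with a mean coverage under 20, 18 (19.8%) were higher and 18 (19.8%) lower, against 6.99% and 33.8% in the series. Of 41 with a mean coverage of at least 20, 2 (4.88%) were higher and 27 (65.9%) lower, against 0.894% and 66.1% in the series. Of the 10 regions whose lowest coverage over the 4 lists was highest, 6 had both treated libraries below both untreated libraries. One of these, chr11:2923177-2924179 between CDKN1C and PHLDA2, had 45 and 42 in the treated lists, against 93 and 57 in the untreated lists. Beside it, chr11:2919820-2920664 had 47 and 73 in the treated lists, against 106 and 68 in the untreated lists, and the groups overlapped. Strong sites of the domain thus had lower coverage in the treated libraries about as often as strong sites elsewhere.

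The last comparison was of the sides of the domain, parted midway between IGF2 and ASCL2 at 2230.5 kb. The KCNQ1 side spans 869.5 kb with 419 regions, or 4.82 per 10 kb, and the H19/IGF2 side 330.5 kb with 190 regions, or 5.75 per 10 kb. The KCNQ1 side had 382 and 290 peaks in the treated lists, against 215 and 269 in the untreated lists, a ratio of 1.38 (exact permutation p = 0.333, the smallest possible). With lists of equal length the groups overlapped on this side (log2 ratio 0.27, exact permutation p = 0.667). The H19/IGF2 side had 163 and 115 in the treated lists, against 90 and 123 in the untreated lists, a ratio of 1.30 with overlapping groups (log2 0.38, exact permutation p = 0.667). Among peaks with a coverage of at least 10 the log2 ratio on that side turned to −0.22. For each peak on the H19/IGF2 side there were 2.34 and 2.52 on the KCNQ1 side in the treated lists, against 2.39 and 2.19 in the untreated lists. The treated libraries lay on either side of untreated replicate 1, and the effect of treatment differed between the sides by 0.09 on the log2 scale (exact permutation p = 0.667). The value depended on the border, the length of the lists and peak strength. It was 0.02 with the border at the start of KCNQ1 and 0.03 with lists of equal length. It was 0.26 at a −log10 q of at least 5 and 0.52 at a coverage of at least 10, and the ratio was then higher in both treated libraries than in both untreated libraries (exact permutation p = 0.333 each, the smallest possible). Gained regions made up 35 of 419 (8.35%) on the KCNQ1 side and 17 of 190 (8.95%) on the H19/IGF2 side. Lost regions were 4 (0.955%) and 5 (2.63%) there, and the backgrounds were 4.21% gained and 3.35% lost. Among regions of all 4 lists, 18 of 92 (19.6%) on the KCNQ1 side were higher in both treated lists. On the H19/IGF2 side they were 2 of 40 (5.00%), near the background of 4.39%. With scaled coverage these shares were closer, at 41.3% on the KCNQ1 side and 30.0% on the H19/IGF2 side (background 27.2%). The difference in that share was not tested, since regions of 1 library are not replicates, and without scaling 8 of the 18 lay between ASCL2 and KCNQ1.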

How the data were processed

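ATAC-seq peak lists of 4 BCPAP libraries, 2 treated with 5-azacytidine and 2 untreated, were used, 1 list per library. The tools MACS2, Picard, Bowtie2 and Trimmomatic and the build hg19 are named, without versions or settings, per the submitters' processing notes, and a shift of read ends is not given in the sources used here. The deposited fold enrichment is the peak's own ratio over a uniform background as the authors' caller gave it. Its values were whole multiples of 1 step per list (within 0.001 of a step, for all peaks), and coverage at the summit is that multiple less 1. The deposited −log10 p and q values were used to rank and filter peaks only. The deposited score, scaled by the authors to 1000000 per list, was not used. Read totals are not given, so depth is unknown, and the uniform background was 0.898 and 0.875 in the treated libraries and 0.913 and 0.898 in the untreated libraries. Nearly all deposited intervals were 500 bp wide.

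Peaks that shared at least 1 base were merged, and a region belongs where its midpoint lies. Gene positions on hg19 were taken to the nearest kb as supplied with the choice of this domain. RefSeq names and gene order come from GRCh38.p14, and no coordinate was converted. The text names regions by a rule: regions at the 7 named genes, gained and lost regions of high coverage (those with a coverage of 10 or more in 2 lists of a group), the 10 regions of all 4 lists with the highest lowest coverage, and those at the borders. Other regions, such as the neighbours of these, were picked after their values were seen. The 4 libraries allow 6 assignments to groups, and exact two-sided permutation tests were run on log2 values per library. The alternatives were lists of equal length (221110 peaks), a −log10 q of at least 5, a coverage of at least 10, merging within 150 bp, regions with a missing peak number left out, a narrower domain, another border between the sides, scaled coverage, the replicate block, and each library left out. The domain, its genes and the comparisons were chosen with earlier results of these data known. The merging was checked on lists with known answers. Tables were computed in pandas 2.3.3 and numpy 2.4.6, tests in scipy 1.17.1 and plots in matplotlib 3.10.9, under Python 3.11.15.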

Additional observations from a re-analysis of the deposited data

How the results depend on the processing

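Counts of regions depended on peak strength and merging. Gained regions numbered 52, against 34 in the narrower domain (10 kb beyond H19 and PHLDA2), 34 without regions with a missing peak number, 30 with merging within 150 bp, 19 at a −log10 q of at least 5 and 7 at a coverage of at least 10. The narrower domain holds 471 regions, so its gained share was 7.22%, beside 8.54% in the whole domain. In the whole series gained regions numbered 15707, against 11877 without missing numbers and 13456 with that merging. They were 3382 at that q and 519 at that coverage. Lost regions numbered 9, against 15 with lists of equal length, 5 at the stricter q and 0 at a coverage of at least 10. In the series lost regions numbered 12522, against 15511, 10431 and 971 at these settings. Without 1 library a region has 1 condition fewer to meet, so counts were higher by construction, between 74 and 187 gained and between 20 and 60 lost regions. Regions higher in both treated lists were 20, against 50 with scaled coverage, 10 where at least 2 lists reached a coverage of 10, 2 at a mean coverage of at least 20 and 26 to 42 without 1 library. Regions lower in both treated lists were 45, against 23 with scaled coverage, 27 and 18 at a mean coverage of at least 20 and under 20, and 53 to 75 without 1 library. The log2 ratio of peaks on the H19/IGF2 side was 0.38 and turned to −0.22 among peaks with a coverage of at least 10, and the cause was not tested. The other log ratios kept their sign in all settings run, and none could pass a threshold. Without 1 library the log2 ratio of peaks in the domain was 0.23 to 0.66, and that of its share of the list 0.09 to 0.43. It was 0.13 to 0.63 for the H19/IGF2 side and 0.27 to 0.67 for the KCNQ1 side, and 0.03 to 0.15 for the difference between the sides. With all libraries that difference was 0.02 with the border at the start of KCNQ1 and 0.03 with lists of equal length. It was 0.26 at the stricter q and 0.52 at a coverage of at least 10, and the share of the list 0.53 and 0.49. The log2 ratio of all peaks in the lists was then −0.24 and −0.30.

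The labels tie no batch to a replicate number. With the replicate block the log2 ratio of peaks in the domain was 0.44 (exact sign-flip p = 0.5, the smallest for 2 pairs). It was 0.26 for the share of the list, 0.38 for the H19/IGF2 side, 0.47 for the KCNQ1 side and 0.09 for the difference between the sides. The block changed no call.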

Other observations

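The neighbourhood of the domain also held more gained than lost regions. In the 1200 kb before it, 60 of 664 regions were gained (9.04%) and 14 lost, a ratio of 4.29, and in the 1200 kb after it 25 of 329 were gained (7.60%) and 8 lost, a ratio of 3.13, beside 8.54% and a ratio of 5.78 in the domain. The crossed pair of 5-azacytidine replicate 1 and untreated replicate 2 held 31 and 17 regions there, against 9 and 4 for 5-azacytidine replicate 2 and untreated replicate 1.

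The longest stretch of the domain with no region in any list was 30.0 kb between H19 and IGF2, chr11:2063036-2093069. Another of 28.9 kb lay before ASCL2, chr11:2241331-2270210, and one of 28.0 kb, chr11:2649330-2677376, reached into KCNQ1OT1.

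At the borders of the domain, the last region before it, chr11:1899645-1900341, had a coverage of 6 and 5 in the treated lists and no peak in the untreated lists. The first inside, chr11:1900365-1901168, had 6 in 5-azacytidine replicate 2 alone of the treated lists, against 8 and 5 in the untreated lists. At the other border, the last region inside, chr11:3096068-3096654, had 6 and 11 in the treated lists, against 14 and 8 in the untreated lists. The first after it, chr11:3101313-3103047, had 8 and 5 in the treated lists, against 12 in untreated replicate 2 and no peak in untreated replicate 1.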
